A study of Mus musculus with 24 samples.

Results

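Thyroid hormone signaling was followed in the mouse hippocampus through 8 genes, which were found on the microarray as 13 probes among 56605 probes tested. They were chosen by name: the deiodinases *Dio2* and *Dio3*, the nuclear receptors *Thra* and *Thrb*, the transporter *Slco1c1*, the cytosolic binding protein *Crym*, and the hormone-responsive genes *Hr* and *Thrsp*. All probes that carry an identifier of these genes were used, and 23853 genes could be named on the array in all.

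The animals were 48 male Swiss-Webster mice, with an age given as 12 weeks. At about this age they were moved to single cages, where they were left to habituate before the treatment. All were then given water with 0.45% hydroxypropyl-β-cyclodextrin through the dark phase of 12 h. Corticosterone-treated animals had corticosterone dissolved in it at 100 µg/ml, whereas control animals had the cyclodextrin alone. Tissue was collected during the first, the fifth or the ninth hour of the following light phase, from 8 control and 8 corticosterone-treated animals each. The controls were siblings of the treated animals, and each group drew on several litters. Litter was not labeled for the samples and was not part of the fits. Each of 24 two-color arrays held hippocampal RNA of 1 control animal (Cy3) and 1 corticosterone-treated animal (Cy5).

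Thyroid hormone reaches the brain mainly as thyroxine, which crosses the blood-brain barrier on carriers that include the product of *Slco1c1*. Within astrocytes the type II deiodinase encoded by *Dio2* converts thyroxine to the active triiodothyronine, while the type III deiodinase encoded by *Dio3*, mainly a neuronal enzyme, inactivates both hormones. Triiodothyronine binds the receptors encoded by *Thra* and *Thrb*, which pair with retinoid X receptors on DNA and regulate target genes.

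The dyes were not exchanged between treatments on any array. A constant dye bias of a probe and an effect of corticosterone of equal size at all hours therefore cannot be told apart, whereas such a bias cancels in comparisons between hours. In bulk tissue, fewer cells of a type and less RNA per cell cannot be told apart either. All 13 probes were well above background in all 48 channels. One array, replicate 7 of the fifth hour, stood apart: the median correlation of its mean log signals with the other arrays was 0.981, against 0.993 to 0.996 for the rest. The 6 genes listed as hippocampal markers (*Prox1*, *Wfs1*, *Zbtb20*, *Neurod6*, *Fibcd1* and *Dsp*) had summed signals between 27430 and 37640 in all animals. The summed signal of 4 thalamic markers reached 10970 in 1 corticosterone-treated animal of the first hour, against at most 7207 in the other groups. In choroid plexus the gene of transthyretin (*Ttr*) is abundant, and here its signal ranged from 81.5 to 1782 between animals.

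The reference promoters that bear on these genes are shown for *Dio2*, the member with the largest effect of corticosterone, and for *Thrb*, which holds all the receptor motifs found among the members. They span 250 bases before the annotated start, 5′ to 3′ on the strand of the gene, as given by RefSeq on GRCm38.p6, and capitals mark the motifs.
Dio2, chr12:90739039-90739288, minus strand: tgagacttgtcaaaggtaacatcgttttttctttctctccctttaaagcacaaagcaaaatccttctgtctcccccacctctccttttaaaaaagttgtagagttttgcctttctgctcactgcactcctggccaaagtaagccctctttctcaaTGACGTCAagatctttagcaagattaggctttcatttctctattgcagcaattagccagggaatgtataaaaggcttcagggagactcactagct
Thrb, first start, chr14:17660710-17660959, plus strand: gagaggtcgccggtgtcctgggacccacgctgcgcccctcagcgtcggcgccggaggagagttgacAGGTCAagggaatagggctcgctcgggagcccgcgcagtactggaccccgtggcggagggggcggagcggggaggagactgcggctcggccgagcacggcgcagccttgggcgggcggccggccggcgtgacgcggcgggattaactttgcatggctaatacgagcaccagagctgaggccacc
Thrb, second start, chr14:17981394-17981643, plus strand: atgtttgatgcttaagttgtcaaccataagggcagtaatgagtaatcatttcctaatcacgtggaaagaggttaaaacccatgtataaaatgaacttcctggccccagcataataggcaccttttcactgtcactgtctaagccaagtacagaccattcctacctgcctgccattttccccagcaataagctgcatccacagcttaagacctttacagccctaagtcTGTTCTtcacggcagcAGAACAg

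Both strands were searched for the core motif of the glucocorticoid receptor (AGAACA, reverse TGTTCT), the core motif of thyroid hormone receptors (AGGTCA, reverse TGACCT) and the cAMP response element (TGACGTCA, the same on both strands). The last of these was added after the *Dio2* sequence had been seen. *Dio2* held the cAMP response element 95 to 88 bases before its start, as did 1.55% of all 32851 promoter windows of this length. The first start of *Thrb* held AGGTCA, which was present in 14% of the windows. At the second start of *Thrb* the glucocorticoid receptor motif occurred on both strands, 23 to 18 and 7 to 2 bases before the start, and 16.1% of the windows held it at least once. No match was found in the windows of *Slco1c1*, *Thrsp* and *Dio3*. These are matches of letters and not measured binding sites, and windows were at hand for 5 of the 8 genes.

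During the first hour, 9 of the 13 probes separated corticosterone-treated from control animals significantly, 7 of them higher and 2 lower after corticosterone. Of all probes on the array, 17.5% were significant in this comparison. The number fell to 5 probes during the fifth hour (4 higher and 1 lower), when 18.1% of all probes were significant. During the ninth hour only *Crym* was significant, 1 of 13 probes, against 14% of all probes. The median log2 fold change over the 13 probes was 0.21, 0.14 and 0.07 during the first, the fifth and the ninth hour, while the median over all probes lay between -0.001 and 0.001. Significance throughout means an adjusted p under 0.05 in the separate channel test of limma, adjusted over all 56605 probes, and fold changes and standard errors (SE) are on the log2 scale without offset.

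**Figure D1:**
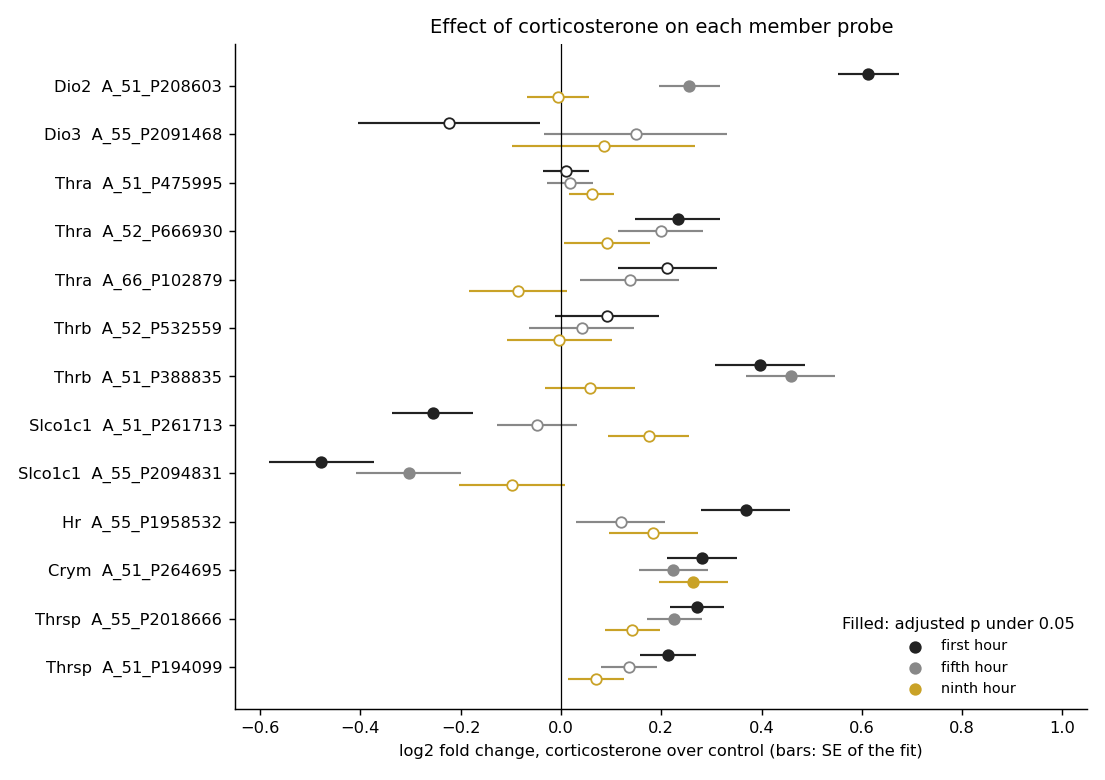
log2 fold change of corticosterone-treated over control animals for each of the 13 probes during the first (black), the fifth (grey) and the ninth (yellow) hour, with the SE of the fit as bars and filled points where the adjusted p was under 0.05. *Dio2* moves from 0.61 to 0.26 and -0.01, and both *Slco1c1* probes lie below 0 during the first hour.

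The activating deiodinase *Dio2* (probe A_51_P208603) was higher after corticosterone during the first hour. Its normalized signal intensity ranged from 2654 to 3330 (median 2923) in control animals and from 3583 to 5299 (median 4674) in corticosterone-treated animals. All corticosterone-treated animals were thus above all controls. The means were 2959 ± 211 and 4541 ± 508 (SD, n = 8), an increase of 52.9%, or 0.61 on the log2 scale (SE 0.061, adjusted p = 6.4e-11), with a higher signal in the corticosterone channel on 8 of 8 arrays.

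The difference in *Dio2* was smaller during the fifth hour. Control animals ranged from 2628 to 3642 (median 2891) and corticosterone-treated animals from 2956 to 4132 (median 3497), so that the groups overlapped. The log2 difference between them was 0.26 (SE 0.061, adjusted p = 0.0014), again positive on 8 of 8 arrays. The highest control value came from the array that stood apart, and without that array the log2 fold change was 0.29 (adjusted p = 7.9e-04). By slide, the mean log2 ratio was 0.43 on slide 1, 0.34 on slide 2 and 0.05 on slide 3, and without slide 1 or without slide 2 the adjusted p rose to 0.065 and 0.061.

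During the ninth hour the 2 groups of animals overlapped in *Dio2*. Control animals ranged from 2199 to 2625 (median 2498) and corticosterone-treated animals from 1964 to 2818 (median 2484). The log2 fold change stood at -0.01 (SE 0.061, adjusted p = 0.96).

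Since a constant dye bias cancels between hours, the change between hours was tested directly. From the earliest to the latest hour, the effect on *Dio2* fell by 0.62 in log2 units (SE 0.087, adjusted p = 1.8e-06). In that test 0.827% of all probes were significant, and 2 of the 13 probes, the other being the brighter *Slco1c1* probe. From the first to the fifth hour the effect of corticosterone on *Dio2* differed by -0.36 (adjusted p = 0.11) and from the fifth to the ninth by -0.26 (adjusted p = 0.40). With a filter at a mean signal of 50 the first of these changes passed (adjusted p = 0.039). In the main fit none of the 13 probes was significant in these shorter intervals, in which 0.0389% and 0.083% of all probes were. Limma gave an unadjusted p under 0.05 for 2 and 3 of the 13 probes, and for 2530 and 2934 of all 56605 probes.

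Within corticosterone-treated animals *Dio2* fell over the light phase. The log2 change was -0.36 from the first to the fifth hour (adjusted p = 0.0024), where 0.546% of all probes were significant. This call was lost without slide 2 (adjusted p = 0.078) or slide 3 (adjusted p = 0.23). The change was -0.52 from the fifth to the ninth hour (adjusted p = 1e-05), where 0.661% were significant. Over the whole interval it reached -0.88 (SE 0.072, adjusted p = 3.8e-13), against 4.02% of all probes. The 8 animals of the ninth hour, at most at 2818, all lay below the 8 of the first hour.

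Control animals had nearly the same mean *Dio2* signal during the first and the fifth hour, 2959 at both, and 2464 ± 132 (SD, n = 8) during the ninth hour. The difference between these controls and those of the first hour was -0.26 (SE 0.072, adjusted p = 0.058), although all 8 controls of the ninth hour lay below all controls of the first hour. Leaving out the array that stood apart, this change had an adjusted p of 0.03. None of the 13 probes passed the threshold between hours in control animals, where 0.0053% of all probes did from the first to the fifth hour, 0.537% from the first to the ninth and 0.0336% from the fifth to the ninth. An unadjusted limma p under 0.05 was given for 2 of the 13 probes in each of these comparisons. Of all 56605 probes, 4078, 5801 and 3587 had such a p, in the same order.

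Ordered by mean, the *Dio2* signal was highest in corticosterone-treated animals of the first hour, followed by those of the fifth hour, by controls of the first and the fifth hour, whose means were nearly equal, and by both groups of the ninth hour. Between neighbors in this order, no significant difference was found for the controls of the first against the fifth hour, for the controls of the ninth hour against those of the fifth (adjusted p = 0.27) or the first (adjusted p = 0.058), and for the 2 groups of the ninth hour. Among controls, corticosterone-treated animals of the fifth hour were tested against those of their own hour only.

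**Figure D2:**
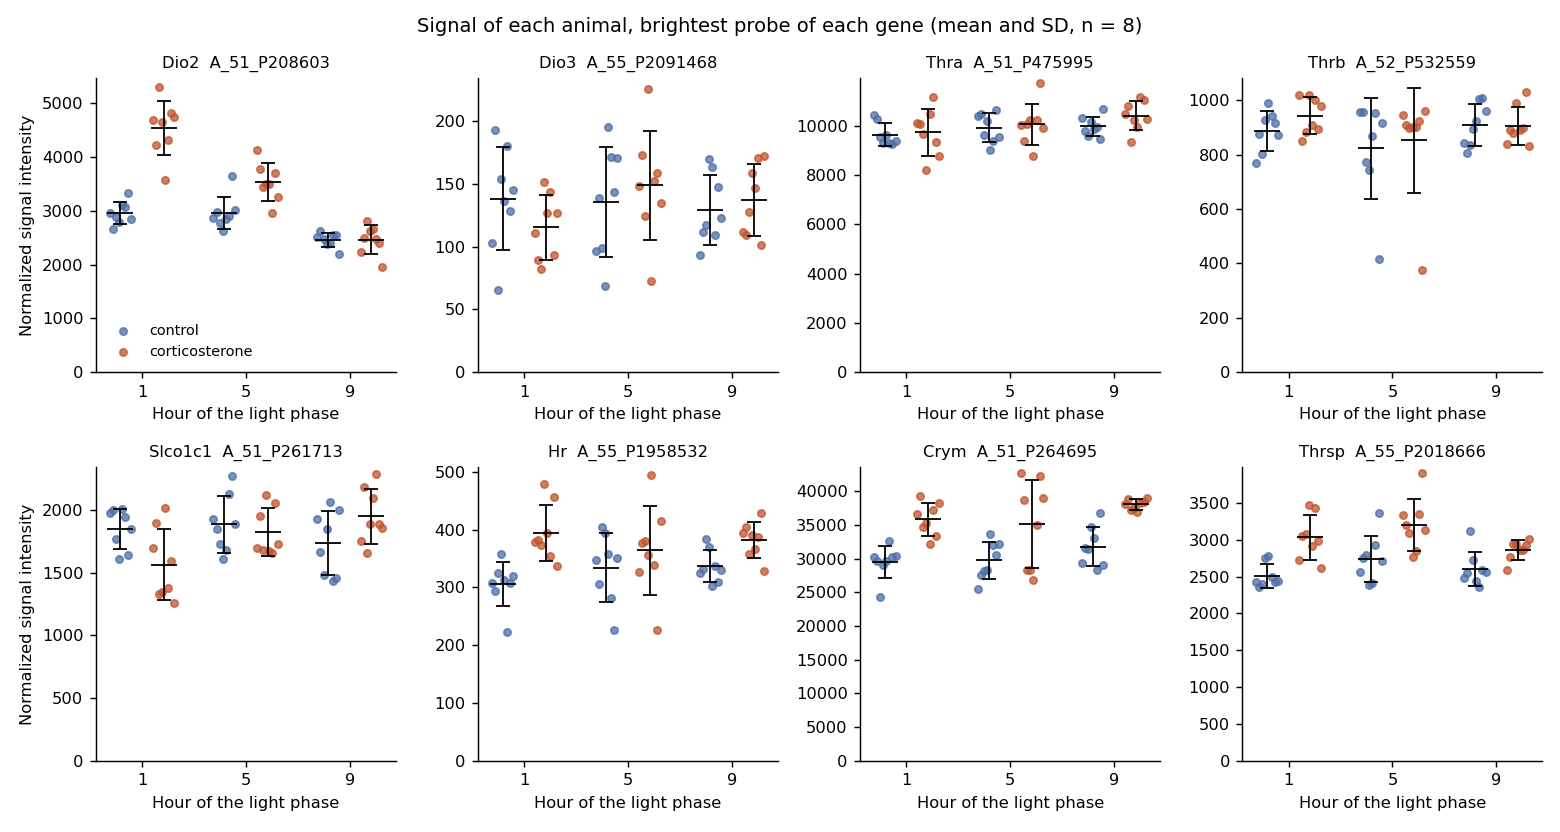
Normalized signal intensity of the brightest probe of each gene in each of the 48 animals (points, blue for control and orange for corticosterone) by hour of the light phase, with the mean and SD of 8 animals in black. Corticosterone-treated animals of the first hour lie between 3583 and 5299 in the *Dio2* panel, above all controls of that hour, and 1 array of the fifth hour is low in both channels for *Thrb* and *Hr*.

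*Dio2* is expressed in astrocytes, and astrocyte markers moved unevenly in the same animals. The summed signal of 7 astrocyte markers ranged from 86310 to 110200 in controls and from 102200 to 115200 in corticosterone-treated animals of the first hour. This sum is carried mainly by *Aldoc*, with a mean signal of 72570, against at most 11440 for any other gene of the list. Of these 7 genes 2 were higher (*Aldh1l1* by 0.57 and *Aldoc* by 0.20 on the log2 scale) and 1 was lower (*Aqp4*, fell by 0.76), while *Gfap*, *Slc1a2*, *Slc1a3* and *Gja1* were not significant, against 17.5% of all probes in either direction. During the ninth hour, when *Dio2* did not differ significantly, 2 of the 7 were higher and 2 lower, against 14% of all probes, and the sums ranged from 95040 to 106600 in controls and from 101800 to 111600 in corticosterone-treated animals. The part of astrocyte number or state in the *Dio2* difference was not tested.

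The inactivating deiodinase *Dio3* (A_55_P2091468) displayed no significant difference at any hour. Its signal was low and varied between animals, from 65.2 to 193 (median 141) in controls and from 81.9 to 152 (median 119) in corticosterone-treated animals of the first hour. The log2 differences, in order of hour, were -0.22, 0.15 and 0.09, each with an SE of 0.18 (adjusted p = 0.37, 0.64 and 0.81).

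*Slco1c1*, which carries thyroxine into brain endothelium and astrocytes, was lower after corticosterone during the first hour on both of its probes. On the brighter probe (A_51_P261713) control animals ranged from 1607 to 2011 (median 1894) and corticosterone-treated animals from 1258 to 2017 (median 1486). The groups overlapped, with 7 of 8 arrays lower in the corticosterone channel and a difference of -0.26 in log2 units (SE 0.081, adjusted p = 0.017), which without slide 3 was -0.19 (adjusted p = 0.24). On the dimmer probe (A_55_P2094831) controls ranged from 411 to 585 (median 502) and corticosterone-treated animals from 290 to 479 (median 344), lower in the corticosterone channel on all 8 arrays. The groups overlapped here too, and the log2 fold change of this probe came to -0.48 (SE 0.10, adjusted p = 7.7e-04).

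At the later hours the dimmer *Slco1c1* probe again had the lower values, and a difference between the probes was not tested. The dimmer probe was lower during the fifth hour (-0.30, SE 0.10, adjusted p = 0.03), on slides 1 and 3 (mean log2 ratios of -0.52 and -0.50) but not on slide 2 (0.03), whereas the brighter probe had -0.05 (adjusted p = 0.72). Without the array that stood apart the fifth hour value of the dimmer probe was -0.31 (adjusted p = 0.049), without slide 1 it was -0.23 (adjusted p = 0.21) and without slide 3 -0.19 (adjusted p = 0.43). Without slide 2 it was -0.51 (adjusted p = 0.0046), and in separate fits for each hour the call was lost (adjusted p = 0.066). During the ninth hour neither was significant, with 0.18 (adjusted p = 0.12) on the brighter and -0.10 (adjusted p = 0.56) on the dimmer probe.

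Over the light phase, comparing its ninth with its first hour, the effect of corticosterone on the brighter *Slco1c1* probe changed by 0.43 (SE 0.11, adjusted p = 0.037), and on the dimmer one by 0.38 (SE 0.15, adjusted p = 0.42). The first of these calls was close to the threshold and was lost with slide as a block (adjusted p = 0.051), without any 1 slide (adjusted p from 0.20 to 0.42) and in the paired fit of the log2 ratios of each array (adjusted p = 0.064). In corticosterone-treated animals the brighter probe was higher by 0.33 during the ninth than during the first hour (adjusted p = 0.023), a call lost without any 1 slide (adjusted p from 0.059 to 0.27), and in control animals the same comparison gave -0.10 (adjusted p = 0.79). Over the 24 arrays the log2 ratios of both probes had a Pearson r of 0.53, as a description.

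**Figure D3:**
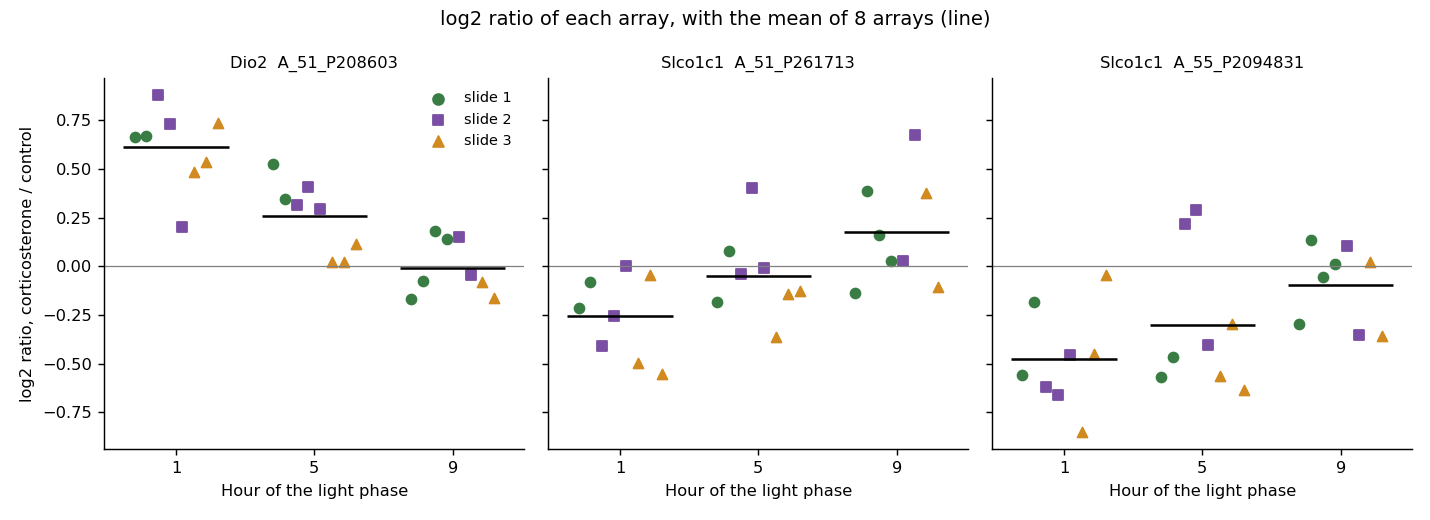
log2 ratio of corticosterone over control on each array for *Dio2* and both *Slco1c1* probes by hour of the light phase, with symbols for the slide and a line at the mean of 8 arrays. *Dio2* lies above 0 on all arrays of the first and the fifth hour and around 0 during the ninth, and on slide 3 its values of the fifth hour are close to 0.

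*Slco1c1* is expressed in brain endothelium and astrocytes. Of 6 endothelial markers 3 were higher (*Pecam1*, *Ly6c1* and *Abcb1a*, log2 fold changes of 0.28 to 0.29) and 2 lower (*Cldn5*, -0.36, and *Flt1*, -0.61) during the first hour, against 17.5% of all probes in either direction, and their summed signal ranged from 14560 to 18220 in controls and from 14340 to 15730 in corticosterone-treated animals. The part of endothelial cells in the *Slco1c1* difference was not tested.

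The receptor genes gave results that depended on the probe. The brightest probe of *Thra* (A_51_P475995) had means of 9628 ± 465 in controls and 9725 ± 942 in corticosterone-treated animals of the first hour (SD, n = 8). The log2 differences of this probe, in order of hour, were 0.01, 0.02 and 0.06 (SE 0.045, adjusted p = 0.91, 0.82 and 0.35). A further *Thra* probe (A_52_P666930) rose during the first hour, with 6050 to 7985 (median 6624) in controls and 6084 to 10100 (median 8057) in corticosterone-treated animals. The difference of 0.23 in log2 units (SE 0.085, adjusted p = 0.041) was a call that was lost under 8 of the 17 alternatives that used more than 1 slide, among them each slide left out (adjusted p = 0.055 without slide 1, 0.40 without slide 2 and 0.067 without slide 3) and the paired fit (adjusted p = 0.058). In the fifth hour this probe had 0.20 (adjusted p = 0.084), which passed without slide 2 (0.33, adjusted p = 0.038). The dimmest *Thra* probe (A_66_P102879) had 0.21 (adjusted p = 0.11) during the first hour and 0.14 (adjusted p = 0.33) during the fifth. Without slide 1 both values passed (0.26, adjusted p = 0.036, and 0.27, adjusted p = 0.031), and the first also passed in separate fits for each hour (adjusted p = 0.028) and on slide 2 alone (adjusted p = 0.024). These last 2 probes had a Pearson r of 0.78 between their log2 ratios over 24 arrays, against 0.36 and 0.42 with the brightest one.

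For *Thrb* the brighter probe (A_52_P532559) did not differ significantly, with log2 fold changes of 0.09, 0.04 and -0.003 (SE 0.10). The dimmer probe (A_51_P388835) was higher after corticosterone during the first hour, from 51.2 to 71.5 (median 65.2) in controls and from 73.4 to 94.1 (median 83.1) in corticosterone-treated animals, with no overlap. In log2 units this was 0.40 (SE 0.089, adjusted p = 0.0013), and 0.46 (adjusted p = 2.3e-04) during the fifth hour. In the fifth hour the ranges were 47.6 to 79.1 in controls and 59.8 to 99.6 in corticosterone-treated animals, which overlapped, and without the array that stood apart the value was 0.42 (adjusted p = 0.0022), whereas without slide 3 it was 0.33 (adjusted p = 0.079). During the ninth hour this probe had 0.06 (adjusted p = 0.74), but the fall of this effect over the light phase, -0.34, did not pass (adjusted p = 0.37). With an offset of 50 the values of this dim probe shrank to 0.22 in the first and 0.26 in the fifth hour. The log2 ratios of the *Thrb* probes were unrelated over the 24 arrays (Pearson r = 0.016). Both are listed under 1 transcript identifier, and the transcript variants that they detect were not examined.

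*Crym* encodes mu-crystallin, which binds triiodothyronine in the cytosol, and was the only member significant at all hours. Its probe (A_51_P264695) was the brightest of the 13, with 24380 to 32650 (median 29980) in controls and 32110 to 39380 (median 35960) in corticosterone-treated animals of the first hour. The groups overlapped slightly, with a difference of 0.28 in log2 units (SE 0.069, adjusted p = 0.0021). During the ninth hour the corticosterone-treated animals lay between 36910 and 38960 and the controls between 28330 and 36770, without overlap (0.26, adjusted p = 0.0049). Without slide 1 the value of the ninth hour was 0.27 (adjusted p = 0.11).

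The value of *Crym* for the fifth hour was less stable. It was 0.22 (SE 0.069, adjusted p = 0.014), with corticosterone-treated animals spread from 26880 to 42680, and 0.19 (adjusted p = 0.06) without the array that stood apart. Without slide 1 it was 0.10 (adjusted p = 0.46) and without slide 3 0.18 (adjusted p = 0.22), whereas without slide 2 it was 0.42 (adjusted p = 2.3e-05). Separate fits for each hour also lost the call (adjusted p = 0.11). On slide 2 the mean log2 ratio of this hour was -0.11, against 0.62 on slide 1 and 0.29 on slide 3. The effect of corticosterone on *Crym* did not change significantly between any hours, so that a constant dye bias and a lasting effect cannot be told apart for this gene.

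*Hr*, a corepressor of nuclear receptors that thyroid hormone induces in the developing brain, was higher after corticosterone during the first hour. Controls ranged from 222 to 357 (median 310) and corticosterone-treated animals from 338 to 479 (median 380), overlapping but higher on all 8 arrays. In log2 units *Hr* differed by 0.37 (SE 0.088, adjusted p = 0.0018). It was 0.12 (adjusted p = 0.35) during the fifth and 0.18 (adjusted p = 0.14) during the ninth hour. Both of these values passed the threshold with the processed signals of the scanner (adjusted p = 0.036 and 0.034) and the second also in separate fits for each hour and in the authors' log2 ratios (adjusted p = 0.024 and 0.034). Its effect moved by -0.18 from the earliest to the latest hour (SE 0.12, adjusted p = 0.88).

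*Thrsp*, a regulator of lipid synthesis that thyroid hormone induces in liver, was higher on both of its probes during the first hour. On the brighter probe (A_55_P2018666) controls ranged from 2353 to 2780 (median 2431) and corticosterone-treated animals from 2615 to 3477 (median 3014), with overlap. In log2 units this probe was higher by 0.27 (SE 0.055, adjusted p = 1.5e-04) during the first hour and by 0.23 (adjusted p = 0.0014) during the fifth. Its value of 0.14 during the ninth hour (adjusted p = 0.054) passed under 8 alternatives, among them the paired fit (adjusted p = 0.023). The dimmer probe (A_51_P194099) had 0.21, 0.14 and 0.07 (adjusted p = 0.0034, 0.064 and 0.42), the first of them not significant without slide 3 (0.19, adjusted p = 0.06) and the second significant under 6 alternatives, among them the paired fit (adjusted p = 0.046). Its log2 ratios had a Pearson r of 0.75 with those of the brighter one. Neither probe changed its effect significantly between hours.

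Other genes of thyroid hormone action were examined through the brightest probe of each, and the counts of each list stand against the 17.5%, 18.1% and 14% of all probes that were significant in the first, the fifth and the ninth hour. Among 7 genes of transport and metabolism, 1 was higher and none lower in the first hour, and 1 was higher and 1 lower in the fifth. A difference of these counts from the share of all probes was not tested. In the ninth hour 0 of the 7 passed the limma test, with an unadjusted p under 0.05 for 1 of them, against 15802 of all 56605 probes. The list medians were 0.10, 0.12 and 0.04. *Slco1a4*, an anion carrier of endothelium, was higher by 0.22 during the fifth hour (adjusted p = 0.0095), when *Slc7a5*, an amino acid carrier that also takes up thyroid hormones, fell by 0.19 (adjusted p = 0.041). The gene higher during the first hour was *Slc16a10*, which was well above background in none of the 8 control and in all 8 corticosterone-treated animals. In the fifth hour these numbers were 2 and 5, with median signals of 32 in controls and 30.5 after corticosterone. In the ninth they were 0 and 7, and the gene passed at neither of these hours. More spots were well above background in Cy5 than in Cy3 on each of the 24 arrays, so this split and the dye cannot be told apart. In the first hour the signal of *Slc16a10* was at least 1.22-fold higher after corticosterone, where the control level was set no lower than the dimmest signal well above background on each array. The limma test of this gene (adjusted p = 0.024) used the signals without such a limit, so it is not a test of the 1.22-fold. *Dio1*, the deiodinase of liver and kidney, was well above background in none of 8 control and 7 of 8 corticosterone-treated animals of the first hour, and passed the test at no hour. *Ttr*, which binds thyroxine in cerebrospinal fluid, did not differ significantly at any hour.

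Among 9 receptor partners and coregulators, none was higher at any hour, while 2 were lower in the first, 3 in the fifth and 1 in the ninth hour, against 17.5%, 18.1% and 14% of all probes in either direction. The list medians were -0.002, 0.02 and -0.04. *Rxrg*, a retinoid X receptor, fell by 0.39 (SE 0.10, adjusted p = 0.0044) during the first and by 0.28 (adjusted p = 0.039) during the fifth hour. Its signal during the first hour ranged from 515 to 854 (median 699) in controls and from 396 to 614 (median 552) in corticosterone-treated animals, with overlap. *Rxrb* fell by 0.15 (adjusted p = 7.8e-04) and by 0.13 (adjusted p = 0.0035), and *Rxra* did not differ significantly. The coactivator *Ncoa3* fell by 0.16 (adjusted p = 0.04) in the fifth and by 0.21 (adjusted p = 0.0092) in the ninth hour. The corepressor *Ncor1* and the deacetylase *Hdac3* passed the test at no hour.

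Among 10 genes known to respond to thyroid hormone in brain, 1 was higher in the first hour, 2 were higher in the fifth, and 3 were higher and 1 lower in the ninth, with list medians of 0.07, 0.09 and 0.14. In the first and the fifth hour these counts were close to or below the 17.5% and 18.1% of all probes, and in the ninth 14% of all probes were significant. *Mbp*, which encodes a protein of myelin, was higher at each hour, by 0.20, 0.18 and 0.17 (adjusted p = 5.4e-04, 0.0019 and 0.0053). It is also 1 of 4 oligodendrocyte markers, of which 2 were higher (*Mbp* and *Mobp*) and 1 lower (*Mag*) at each hour, while *Mog* did not pass, against 17.5%, 18.1% and 14% of all probes. In the first hour *Mobp* was higher by 0.59 and *Mag* fell by 0.27, and the summed signal of the 4 ranged from 13480 to 15770 in controls and from 15540 to 19690 in corticosterone-treated animals. This sum is carried mainly by *Mbp* itself, with a mean signal of 10060, against at most 3281 for any other of the 4. The part of oligodendrocytes in the *Mbp* difference was not tested. The effect on *Mbp* did not change significantly between any hours. A constant dye bias and a lasting effect therefore cannot be told apart for *Mbp* either. *Reln*, which guides neuronal layering, was higher by 0.28 (adjusted p = 1.4e-04) in the fifth and by 0.18 (adjusted p = 0.018) in the ninth hour. The striatal signaling gene *Rasd2* was higher by 0.20 during the ninth hour (adjusted p = 0.0095).

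*Klf9*, a transcription factor induced by both thyroid hormone and glucocorticoids, displayed a pattern that changed between hours. The effect of corticosterone was 0.06 (adjusted p = 0.29) in the first hour, then -0.09 (adjusted p = 0.10), and reached -0.35 (SE 0.043, adjusted p = 2e-08) in the ninth. In the ninth hour controls ranged from 6781 to 7956 (median 7335) and corticosterone-treated animals from 5430 to 6415 (median 5701), with no overlap. From the earliest to the latest hour this effect moved by -0.41 (SE 0.060, adjusted p = 2.5e-06) and from the fifth to the ninth by -0.26 (adjusted p = 0.031), and *Klf9* was the only gene of these lists that passed either test. The study reported that blood corticosterone of treated animals was above that of controls in the first hour. It did not differ significantly in the fifth and was below that of controls in the ninth. The part of these levels in the *Klf9* difference was not tested.

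**Figure D4:**
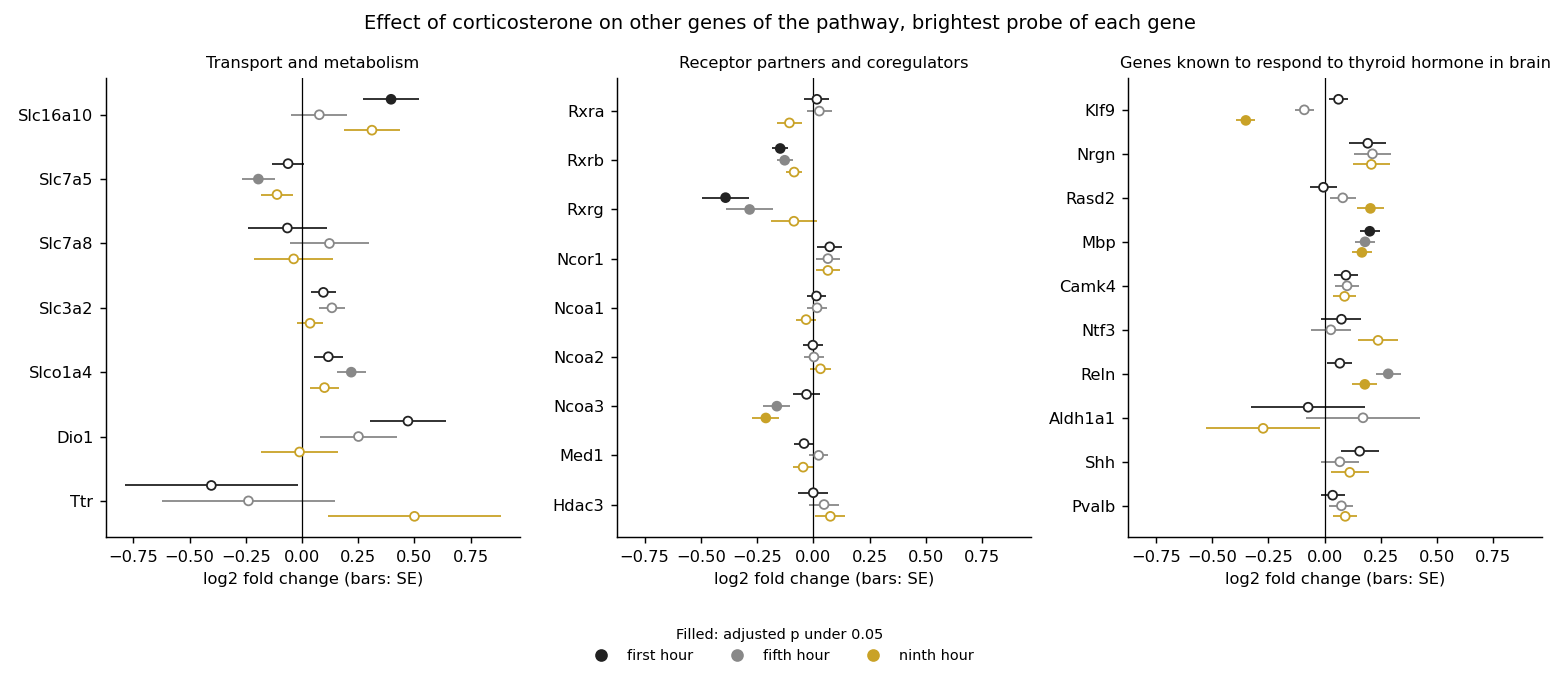
log2 fold change of corticosterone-treated over control animals for the other genes of thyroid hormone action, by the brightest probe of each gene and in the 3 lists, during the first (black), the fifth (grey) and the ninth (yellow) hour, with the SE as bars and filled points where the adjusted p was under 0.05. *Klf9* moves from 0.06 to -0.35, *Mbp* lies above 0 at each hour, and *Slc16a10* and *Dio1* were near background.

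The genes whose log2 ratios over the 24 arrays were most like those of *Dio2*, among 22536 named probes with a mean signal of at least 50, were *Ppp1r3g*, *Trp53bp2* and *Fas*, with a Pearson r of 0.914, 0.909 and 0.908. These values share arrays and dyes and are a description. *Ppp1r3g*, a glycogen-targeting subunit of protein phosphatase, had differences of 0.47, -0.03 and -0.26 (log2) during the first, the fifth and the ninth hour, and *Fas*, a death receptor, had 0.79, -0.17 and -0.62. *Trp53bp2*, which encodes a protein that binds p53, had 0.10 (adjusted p = 0.27), -0.18 (adjusted p = 0.036) and -0.39 (adjusted p = 1.6e-05). All 3 genes were thus below 0 during the ninth hour, when *Dio2* was at -0.01. For the brighter *Slco1c1* probe the most similar genes were *Nat8f4*, *Tcf7l1* and *Rhoc*, with a Pearson r of 0.772, 0.756 and 0.724. Their log2 fold changes during the first hour were -0.19 (adjusted p = 0.046), -0.18 (adjusted p = 0.049) and -0.10 (adjusted p = 0.071).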

How the data were processed

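Hippocampal RNA of single animals was hybridized on two-color Agilent arrays, 24 on 3 slides (2, 2 and 4 arrays of the first, the fifth and the ninth hour on slide 1, and 3, 3 and 2 on slides 2 and 3). The authors deposited scanner files, made with the Agilent Feature Extraction software, that hold the median intensity of each spot and of its background, not normalized, along with processed signals as intensity. They also deposited a table of log2 ratios, used as an alternative: its values had a Pearson r of 0.993 with the log2 ratios computed here, which bears out the direction of Cy5 over Cy3. Well above background were 57.9 to 64.2% of spots in Cy3 and 61 to 70.4% in Cy5. The number of arrays limits the precision.

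Intensities were corrected by normexp (offset 50 for p values, 0 for fold changes and SE), loess normalized within and quantile normalized between arrays in limma 3.58.1 with R 4.3.3. Control spots (3671) were taken out, outlier spots were missing, and copies of a probe were averaged. The separate channel test fitted 6 groups with an intraspot correlation of 0.279, and p values were adjusted over 56605 probes by the Benjamini-Hochberg method. The step was tested on simulated data. Figures were drawn with matplotlib 3.10.9.

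Names came from RefSeq accessions for 34566 probes and from the study's annotation for 145, among them *Dio2*. The members, lists and tests were chosen with earlier results of these data known. All member probes are named, with the brightest as the main one. Of the list genes, those past the threshold are named, up to 4 per list and hour by adjusted p. List and marker genes that did not pass were named after their values were seen. Some genes of the lists are not reported here and were left out of the counts. Genes of similar pattern were the 3 with the highest Pearson r. Alternatives were other offsets, background corrections, normalizations, filters and variance models, slide as a block, single slides alone or left out, log ratios of each array, and, chosen after seeing the data, separate fits for each hour and the fit without the array that stood apart.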

Additional observations from a re-analysis of the deposited data

Results flagged for a closer look

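For 2 member probes the effect of corticosterone in the ninth hour was unlike that in the first, by the separate channel test of limma. Among all probes on the array, 0.827% were significant in this comparison. The change was -0.62 for *Dio2* (adjusted p = 1.8e-06) and 0.43 for the brighter *Slco1c1* probe (adjusted p = 0.037). The *Slco1c1* call was lost under 7 of the 16 alternatives that used more than 1 slide, among them each slide left out and the paired fit. The *Dio2* call held under all 16.

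A single animal stood far from the other 7 of its group in 7 of the 78 groups examined (13 probes, 2 treatments and 3 hours), where about 1 in 20 groups would do so by chance. On the array that stood apart from the others (replicate 7 of the fifth hour), the brighter *Thrb* probe was at 415 in the control and at 374 in the corticosterone-treated animal, against at least 745 and 897 in the others. On the same array *Dio2* was at 3642 in the control animal, with the next at 3013. The dimmer *Thrb* probe was at 59.8 in a corticosterone-treated animal of the fifth hour (next 81.7). The dimmer *Slco1c1* probe was at 664 in a corticosterone-treated animal of the ninth hour (next 488). In control animals of the first hour, *Hr* was at 222 in one (next 294) and *Crym* at 24380 in another (next 29080).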

How the results depend on the processing

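The call and direction of *Dio2* during the first hour held under all 20 alternatives (0.59 to 0.66), as did its fall from the first to the ninth hour in corticosterone-treated animals (17 alternatives, -1.09 to -0.79). The change of its effect between these hours held under 16 of 19 (-0.71 to -0.55), the exceptions being single slides alone. The counts of significant probes moved as follows; slide subsets hold fewer arrays, and the cause of the other moves was not tested. With slide 1, 2 or 3 alone, the effect of corticosterone was significant on 1, 2 and 1 probes during the first hour, on 2, 0 and 1 during the fifth, and on 0 with slide 2 or 3 during the ninth. With these slides alone the treated animals gave 0 probes from the first to the fifth hour, 1 from the first to the ninth and 0 (slides 2 and 3) from the fifth to the ninth, and the change of effect gave 0. On slide 2 alone the fifth hour values reversed for the dimmer *Slco1c1* probe (0.032) and *Crym* (-0.107). Leaving out slide 3 took the count of the first hour from 9 to 6, and it was 8 to 10 under the other alternatives with more than 1 slide. Leaving out slide 1 or slide 3 gave 3 and 2 probes during the fifth hour, where scanner signals gave 7, and leaving out slide 1 gave 0 during the ninth. Without slide 2 or 3 the treated animals gave 0 from the first to the fifth hour. Without any single slide, 1 probe was left for the first to the ninth hour in treated animals and for the change of effect. Separate fits for each hour gave 3 probes in each of the later hours. For the ninth hour, no background correction, Aquantile, a filter at a mean signal of 50, and the fit without the array that stood apart gave 2, and scanner signals and the authors' log2 ratios gave 3. Scanner signals, and the fit without that array, gave 1 in controls from the first to the ninth hour. The filter gave 1, *Dio2*, for the change of effect from the first to the fifth hour. An offset of 0 for p values, slide as a block and the authors' log2 ratios gave 1 for the change from the first to the ninth. The paired fit on the log ratios of each array gave 2 probes during the ninth hour and 1 for this change. All 13 probes were well above background in all 48 channels, and *Dio3* had the largest SE of the corticosterone effect among them (0.18).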
